A study of Mus musculus with 6 samples.

Results

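Carcinoma in situ of the mouse bladder, a flat high-grade lesion that stays within the epithelium, was set against the normal urothelium and the invasive carcinoma to describe the genes on which the in situ stage stood apart from both. A gene was taken as a member when both in situ arrays lay above all 4 other arrays, or both below them. This held for 3243 of 17400 autosomal genes, out of 18193 genes measured. In 1977 of them, 11.4% of the autosomal genes, the in situ arrays were the higher, and in 1266, or 7.28%, they were the lower. The values are log2 signals after RMA normalization, on which a difference of 1 is a 2-fold difference, and 1 probe set stood for each gene, the one with the highest mean signal. Each difference given for the in situ stage, unless another is named, is the in situ mean minus the average of the normal and the invasive mean, with the standard error of a limma model. A gene is called when the adjusted p of that difference was under 0.05. The arrays that chose the members are those of the test, so a member's p describes its size against the spread and is no independent evidence.

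The 6 arrays fell into 3 groups of 2 and came from FVB/N mice aged 8 months. Normal urothelium was taken from wild-type animals. Carcinoma in situ and invasive carcinoma both came from mice labelled H-ras+/-, p53-/-, and the array titles call both double transgene. The labels are read here as an H-ras transgene with loss of p53, and the titles do not say in which cells. Cells were lifted by laser capture from frozen bladder sections stained with haematoxylin and eosin, and equal amounts of RNA were labelled for each array. Against normal urothelium the genotype and the lesion changed together, and only the invasive arrays shared the genotype of the in situ arrays. The promoter driving the transgene is not given in the sources used here, and the altered genes themselves, Hras and Trp53, were not analysed here. The labels did not tie captured regions to animals, so the p-values rest on differences between arrays that may be technical.

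The array medians lay between 6.07 and 6.14. The in situ arrays were far closer to each other than the arrays of the other groups: the SD of their log2 difference over all genes was 0.220, against 0.425 between the invasive and 0.689 between the normal arrays. Epithelial markers were high on every array, with a mean over 15 markers of 12.14 and 12.23 in the in situ arrays and 11.30 to 12.26 in the others, and the uroplakin gene Upk1b read 13.16 and 13.34 in the in situ arrays. The Y-linked transcripts Kdm5d, Eif2s3y and Uty were low in both in situ arrays only, while Usp9y was low on all 6. Kdm5d read 2.90 and 2.84 there, 8.28 and 7.62 in the normal and 6.58 and 5.96 in the invasive arrays, and Eif2s3y read 4.49 and 3.37 against 7.83 to 9.39 in the other 4. Xist, the transcript of the inactive X, read 13.17 and 13.33 in the in situ arrays but 6.85 and 13.37 in the normal and 10.28 and 6.43 in the invasive ones. Normal array 2 and invasive array 1 thus read high for Xist and for Kdm5d, Eif2s3y and Uty alike. The sex of the animals and the in situ stage therefore cannot be told apart, and the 26 called genes on the X and Y chromosomes were left out of the members.

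The urothelium is a stratified epithelium in which basal cells, marked by Krt5 and the transcription factor p63, lie on the basement membrane, and umbrella cells, marked by Krt20 and the uroplakin plaques, line the lumen. A Ras transgene feeds the MAPK cascade, whose output can be read from feedback genes such as the Dusp phosphatases, the Spry and Spred inhibitors and the Etv factors. Squamous differentiation, a programme of skin that bladder tumours can take up, uses deiminases that turn arginine into citrulline, acid lipases, transglutaminases and cornified envelope proteins. Below the epithelium lies a lamina propria of fibroblasts, collagens and small proteoglycans, and then the detrusor muscle. Captured cells can hold some of each.

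The promoters of 6 members are shown because the results below turn on them: the neighbouring deiminase genes Padi1 and Padi3 and the lipase gene Lipm, which were higher in situ, the umbrella cell keratin gene Krt20, and the sterol genes Cyp51 and Insig1, which were lower. RefSeq sequences of 300 bases around the start of transcription, on GRCm38.p6, were found for 16 of the 24 genes furthest from the nearer group named below and for 4 of the 6 lower genes of sterol and fatty acid synthesis. They lie at chr4:140845729-140846028 (minus strand), chr4:140810599-140810898 (minus), chr19:34100693-34100992 (plus), chr11:99438104-99438403 (minus), chr5:4104648-4104947 (minus) and chr5:28071162-28071461 (plus), and read 5′ to 3′ on the gene's strand. Capitals mark a CCAAT box (CCAAT, or ATTGG on the opposite strand), and in Krt20 a TATA box (TATAAA).
Padi1: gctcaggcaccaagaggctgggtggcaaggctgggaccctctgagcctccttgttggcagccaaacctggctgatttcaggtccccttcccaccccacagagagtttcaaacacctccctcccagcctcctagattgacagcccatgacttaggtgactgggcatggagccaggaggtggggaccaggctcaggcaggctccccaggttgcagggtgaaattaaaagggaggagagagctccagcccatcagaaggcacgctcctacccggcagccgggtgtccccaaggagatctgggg
Padi3: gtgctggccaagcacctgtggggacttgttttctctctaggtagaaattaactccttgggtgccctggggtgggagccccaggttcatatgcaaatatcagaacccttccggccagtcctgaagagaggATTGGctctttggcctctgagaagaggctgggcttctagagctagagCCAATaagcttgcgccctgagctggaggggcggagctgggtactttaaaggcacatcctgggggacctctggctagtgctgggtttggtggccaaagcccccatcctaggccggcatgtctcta
Lipm: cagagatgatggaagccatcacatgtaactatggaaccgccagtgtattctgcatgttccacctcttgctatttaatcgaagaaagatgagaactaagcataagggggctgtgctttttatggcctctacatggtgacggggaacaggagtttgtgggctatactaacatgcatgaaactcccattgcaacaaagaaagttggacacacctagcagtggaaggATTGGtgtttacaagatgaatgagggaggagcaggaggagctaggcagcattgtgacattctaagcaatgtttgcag
Krt20: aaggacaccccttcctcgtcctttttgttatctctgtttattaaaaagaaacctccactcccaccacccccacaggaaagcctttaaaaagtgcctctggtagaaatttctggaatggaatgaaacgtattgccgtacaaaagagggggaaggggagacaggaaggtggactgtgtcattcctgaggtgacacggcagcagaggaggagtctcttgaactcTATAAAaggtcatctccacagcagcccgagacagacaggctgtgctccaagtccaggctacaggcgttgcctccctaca
Cyp51: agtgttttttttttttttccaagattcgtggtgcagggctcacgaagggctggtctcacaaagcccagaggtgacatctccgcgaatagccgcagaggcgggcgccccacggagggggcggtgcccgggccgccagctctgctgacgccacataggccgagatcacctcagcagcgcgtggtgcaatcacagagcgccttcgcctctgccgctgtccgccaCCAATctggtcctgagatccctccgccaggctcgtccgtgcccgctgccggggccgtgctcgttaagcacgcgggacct
Insig1: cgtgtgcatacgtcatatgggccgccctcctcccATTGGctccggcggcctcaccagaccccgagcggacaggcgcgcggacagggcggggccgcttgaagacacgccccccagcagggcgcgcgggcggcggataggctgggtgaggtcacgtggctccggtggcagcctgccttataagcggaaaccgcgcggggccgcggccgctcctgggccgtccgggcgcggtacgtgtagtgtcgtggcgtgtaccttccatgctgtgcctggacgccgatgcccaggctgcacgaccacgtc

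Both strands were searched, and no motif match overlapped another in these 6. The window of Padi3 held 2 CCAAT boxes, those of Lipm, Cyp51 and Insig1 held 1 each, and that of Padi1 held 0. Over 32851 promoters of the same length a CCAAT box was present in 37.4%, a TATA box in 13.6% and a GC box (GGGCGG) in 35.7%. All 4 sterol genes with a promoter (Cyp51, Insig1, Mvd and Hsd17b7) held at least 1 CCAAT box and at least 1 GC box. The sterol element TCACNCCAC was found in 1.24% of all promoters and in 0 of these 4, which says only that these letters are not in the window.

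Most in situ differences were small. The median difference of the 1977 higher members was 0.58 and that of the 1266 lower members -0.54, against 0.00761 for all genes. Measured from the nearer of the other groups, 124 higher and 106 lower members differed by over 1 (2-fold), 15 and 25 by over 2, and 2 and 5 by over 3. The nearer group was the invasive one for 1382 higher members (69.9%) and for 661 lower members (52.2%). Of the higher members 214 (10.8%) were called higher in invasive than in normal tissue, against 12.6% of all genes, and 31 (1.57%) lower, against 7.46%. Of the lower members 144 (11.4%) were called higher and 62 (4.90%) lower in that comparison, which shares its arrays with the rule. Higher members were bright genes, with a median level of 8.31 against 7.09 for all genes, while lower members had a median of 6.65. The rule admits very small gaps: Spinkl and Nxph2 lay inside it by 0.00017 and 0.00022, and 4933423K11Rik and Cntn4 lay just outside with a gap of 0.

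By limma 456 of 18193 genes (2.51%) were called in this difference, 193 higher in situ (1.06%) and 263 lower (1.45%). Of the members 143 higher and 150 lower genes were among them. Of all genes 52 (0.286%) were called higher against normal and against invasive tissue alike and 49 (0.269%) lower against both, and 46 and 41 of these were members. A further 144 called genes were no members, since their in situ values were not both beyond all of the other 4 arrays. The count depended on single arrays: it was 0 without in situ array 1 (1396 at an unadjusted p under 0.05) and 0 without in situ array 2 (1381), 2968 without normal array 1, 1606 without normal array 2 and 118 without invasive array 2. Against normal tissue alone 5.74% of genes were called higher and 3.04% lower in situ, and against invasive tissue alone 1.31% higher and 4.18% lower.

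The 4 called higher members furthest from the nearer group were Lipm, Padi3, Lipk and Padi1, a ranking that comes from the values that chose the members. Lipm and Lipk belong to a family of acid lipases expressed in the outer layers of the epidermis, and Padi1 and Padi3 encode peptidylarginine deiminases. Lipm read 5.72 and 6.02 in the normal arrays, 10.09 and 10.23 in the in situ arrays and 7.27 and 6.17 in the invasive arrays. Lipk read 7.11 and 5.68, 10.29 and 10.27, and 7.74 and 6.87 in the same order. Only the in situ arrays stood at the top for both lipases. Normal and invasive arrays overlapped for Lipk, while for Lipm both invasive arrays lay above the normal ones. The rise of Lipm was 3.86 ± 0.32 (14.6-fold, adjusted p = 0.0115), with 4.42 at its other probe set, and that of Lipk 3.43 ± 0.45 (adjusted p = 0.0266).

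Padi1 read 8.38 and 7.92 in the normal arrays, 11.41 and 11.51 in the in situ arrays and 8.98 and 8.47 in the invasive arrays. For Padi3 the values were 7.31 and 8.19, 11.20 and 11.14, and 8.44 and 7.51. In situ values again lay clear of the other 4, which for Padi3 were intermixed. Padi1 rose by 3.02 ± 0.22 (adjusted p = 0.00963) and Padi3 by 3.31 ± 0.35 (adjusted p = 0.0176). The family did not move as a whole. Padi4 was a member with a smaller difference that was not called (1.27 ± 0.29, adjusted p = 0.0977), with 10.12 and 10.28 in situ against 9.57 and 9.91 in the normal and 8.60 and 7.65 in the invasive arrays, and Padi2 and Padi6 were no members. Padi2 read 9.0 and 8.89 in situ, below the normal arrays at 9.19 and 9.88 and above the invasive arrays at 7.71 and 7.61. Padi1 and Padi3 are adjacent protein-coding genes on chromosome 4. Lipk and Lipm lie on chromosome 19 with Lipn between them. Lipn, near the bottom of the scale on all 6 arrays, was no member.

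**Figure D1:**
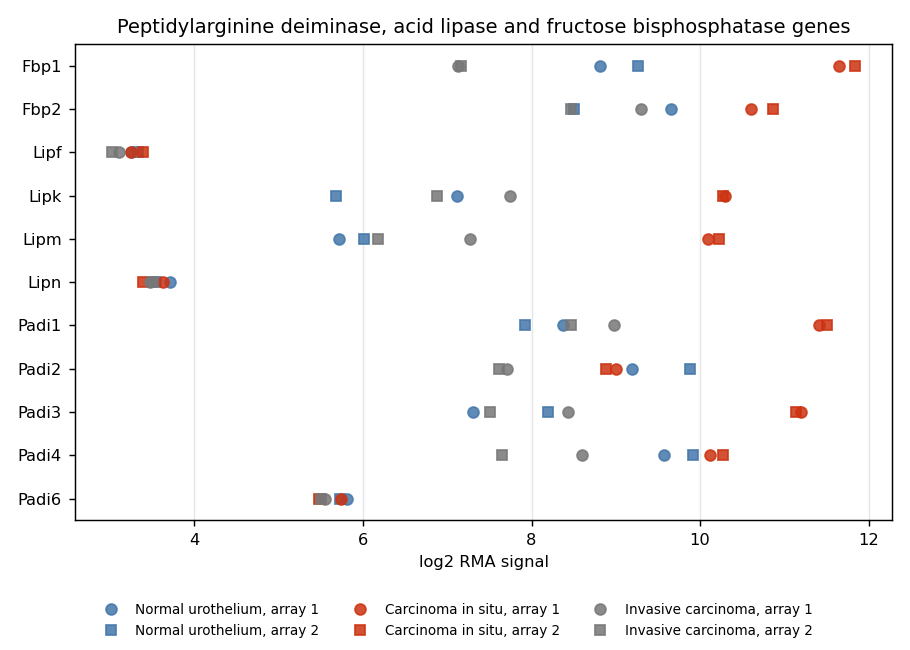
Log2 RMA signal (horizontal axis) of the fructose bisphosphatase, acid lipase and peptidylarginine deiminase genes (rows) on the 6 arrays, coloured by group with a symbol for array 1 or 2 of a group. The in situ arrays lie to the right of all others for Fbp1, Fbp2, Lipk, Lipm, Padi1, Padi3 and Padi4, while Lipf, Lipn, Padi2 and Padi6 show no such gap.

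Fbp1, the gluconeogenic enzyme fructose-1,6-bisphosphatase, read 8.82 and 9.27 in the normal arrays, 11.65 and 11.84 in the in situ arrays and 7.13 and 7.16 in the invasive arrays. The groups formed 3 separate levels with the in situ stage at the top and the invasive stage at the bottom. It rose by 3.65 ± 0.18 (12.5-fold, adjusted p = 0.00781), by 2.70 ± 0.21 against normal and by 4.60 ± 0.21 against invasive tissue. Its neighbour on chromosome 13, Fbp2, encodes the muscle form of the enzyme. It read 10.60 and 10.87 in situ against 8.47 to 9.66 in the other arrays and was not called (1.75 ± 0.39, adjusted p = 0.0919). Krt23, an acidic keratin, read 8.22 and 7.21 in the normal, 10.70 and 10.81 in the in situ and 9.16 and 7.85 in the invasive arrays. In situ arrays were the highest, and the normal and invasive arrays overlapped. Krt23 rose by 2.65 ± 0.44 (adjusted p = 0.0484), but its difference from the invasive arrays alone was not called (2.25 ± 0.51, adjusted p = 0.0723). Lypd5, a membrane-anchored protein of the Ly6 family, read 8.72 and 8.55 in situ against 5.19 to 6.32 in the others and rose by 2.89 ± 0.26 (adjusted p = 0.0128).

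Genes best known from leukocytes and neurons were also among the 12 called higher members furthest from the nearer group. Cd53, a tetraspanin of leukocytes, read 7.38 and 6.19 in the normal arrays, 11.18 and 11.46 in the in situ arrays and 8.76 and 8.83 in the invasive arrays, a rise of 3.53 ± 0.34 (adjusted p = 0.0143). H2-Eb1, a chain of the class II molecules that present antigen, read 5.88 and 6.56, 8.75 and 8.88, and 6.29 and 6.96, a rise of 2.40 ± 0.28 (adjusted p = 0.0207). For Cd53 the invasive arrays lay between the other groups, and for H2-Eb1 they overlapped the normal arrays. Of 19 antigen presentation genes 1, H2-Eb1, was a higher member (5.26%, against 11.4% of autosomal genes). On that list 1 gene was a lower member and 4 were called higher. Among leukocyte marker lists, the mast and dendritic cell list had means of 5.38 and 5.35 in situ. The normal arrays read 4.96 and 5.14 on it and the invasive arrays 6.76 and 6.52. Of 17 macrophage markers 0 were members and 0 were called, and their mean level was 7.55 and 7.58 in situ, between 6.65 and 6.66 in the normal and 8.96 and 9.63 in the invasive arrays. The T and NK cell list had 0 of 15 higher members, with means of 5.48 and 5.40 in situ and 5.34 to 6.1 in the others. The other class II genes H2-Aa (10.56 and 10.49 in situ) and H2-Ab1 (10.17 and 10.22) were no members, as invasive array 2 was higher for both, at 11.40 and 11.63. The part of leukocytes in these rises was not tested.

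Camk4, a calcium-dependent kinase of T cells and neurons, read 8.43 and 8.23 in situ against 4.44 to 5.97 in the other arrays and rose by 3.04 ± 0.18 (adjusted p = 0.00836). Its 4 other probe sets gave differences of -0.19 to 1.29, so the size of that rise rests on 1 probe set. Nptx1, a neuronal pentraxin, read 4.33 and 4.30 in the normal, 9.70 and 9.61 in the in situ and 7.92 and 6.57 in the invasive arrays. Its groups stood in 3 separate steps, with the lesions above the normal tissue. The rise of 3.87 ± 0.37 was the largest among higher members (14.7-fold, adjusted p = 0.0143), and its other probe set gave 1.06. D17H6S56E-5, a transcript of chromosome 17, read 10.69 and 10.47 in situ against 7.09 to 8.00 in the others. It rose by 2.93 ± 0.22 (adjusted p = 0.00963), and its other probe set gave 4.26.

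**Figure D2:**
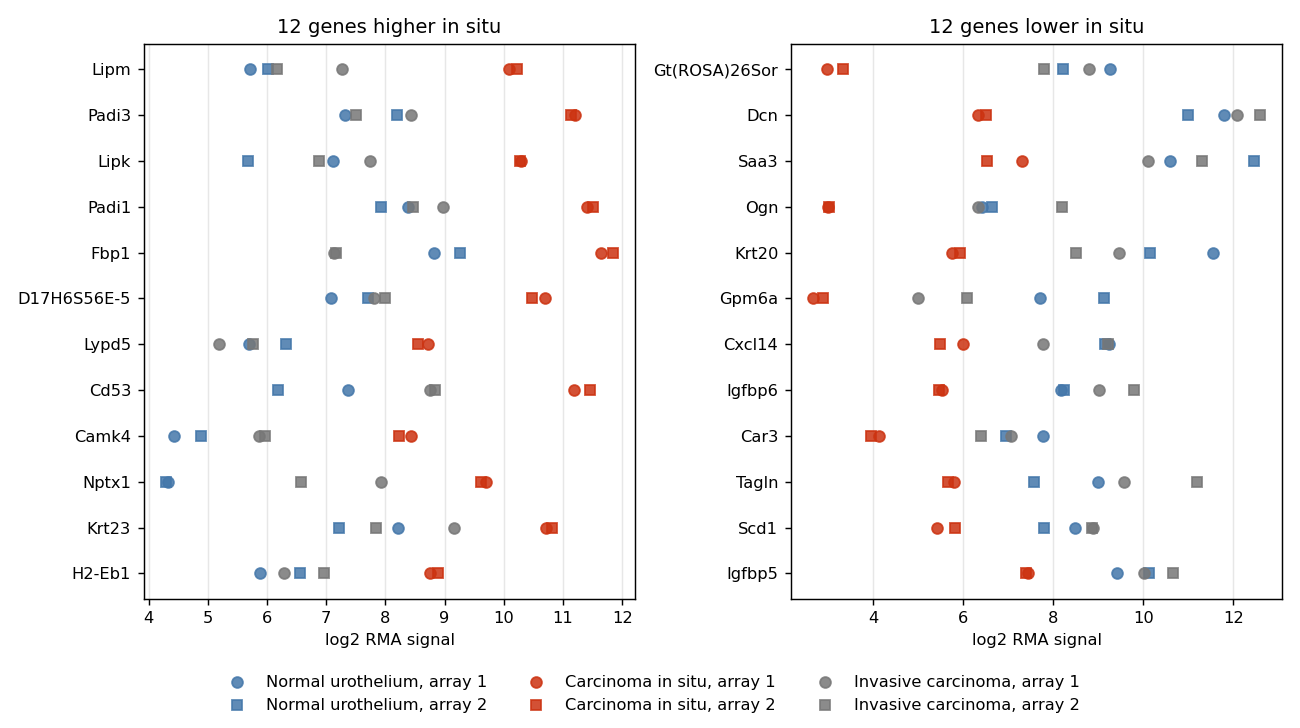
Log2 RMA signal (horizontal axis) of the 12 higher (left) and 12 lower (right) called members with the largest difference from the nearer group, ordered by that difference, with a point for each of the 6 arrays coloured by group. The in situ arrays lie close together and clear of the other 4 in every row, from Lipm at 10.09 and 10.23 to H2-Eb1 at 8.75 and 8.88 on the left, and from Gt(ROSA)26Sor at 2.96 and 3.33 to Igfbp5 at 7.44 and 7.39 on the right.

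Krt20, the umbrella cell keratin, was among the called lower members furthest from the nearer group. It read 11.55 and 10.14 in the normal arrays, 5.74 and 5.92 in the in situ arrays and 9.46 and 8.51 in the invasive arrays. Invasive arrays lay between, and the in situ arrays were the lowest. It fell by 4.09 ± 0.46 (17-fold, adjusted p = 0.0191), with differences of -5.02 ± 0.53 from normal and -3.15 ± 0.53 from invasive tissue. Of the uroplakins, Upk1a, Upk1b, Upk2, Upk3a and Upk3b were no members and lay between the normal and the invasive arrays in situ, as Upk2 did at 9.49 and 9.56 in situ against 12.54 and 11.66 in the normal and 8.00 and 8.10 in the invasive arrays. The related gene Upk3bl was a higher member, at 8.87 and 8.97 in situ against 6.35 to 8.25 in the other arrays, and was not called (1.63 ± 0.31, adjusted p = 0.0628).

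Dcn encodes decorin, a small proteoglycan that coats collagen fibrils and is made by fibroblasts. It read 11.79 and 11.001 in the normal, 6.32 and 6.50 in the in situ and 12.08 and 12.59 in the invasive arrays. Normal and invasive tissue were alike high, and the in situ arrays lay far below. Dcn fell by 5.46 ± 0.28 (43.9-fold, adjusted p = 0.00781), the largest fall of all members, and its other probe set gave -1.58. Ogn, osteoglycin of the same proteoglycan family, read 6.41 and 6.65, 2.99 and 3.02, and 6.33 and 8.18 and fell by 3.88 ± 0.50 (adjusted p = 0.0250). The insulin-like growth factor binding proteins Igfbp6 (-3.31 ± 0.24, adjusted p = 0.00963) and Igfbp5 (-2.64 ± 0.28, adjusted p = 0.0171) fell as well. Igfbp6 read 5.52 and 5.46 in situ against 8.16 to 9.79 in the other arrays. The other probe set of Igfbp5, at -0.41, was not beyond the other arrays. Tagln, an actin-binding protein of smooth muscle, read 5.78 and 5.65 in situ, 9.0 and 7.57 in normal and 9.56 and 11.20 in invasive tissue and fell by 3.62 ± 0.57 (adjusted p = 0.0426). Its difference from the normal arrays alone was not called (-2.57 ± 0.66, adjusted p = 0.0754).

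The stromal marker lists were low in situ too, but they hold Dcn and Tagln themselves and are no separate readout. Of 16 fibroblast markers 8 were lower members (50%, against 7.28% of autosomal genes) and 6 were called lower. Their mean level was 6.41 and 6.42 in situ, 7.12 and 6.76 in the normal and 9.26 and 10.63 in the invasive arrays. The median difference of these markers was -2.06. By the list means most of the difference was against the invasive arrays. Of 14 smooth muscle markers 10 were lower members (71.4%), 1, Smtn, was higher, and 4 were called lower. The smooth muscle mean was 6.85 and 6.75 in situ, 8.05 and 7.30 in normal and 7.98 and 8.57 in invasive tissue, and the median difference was -0.95. Of 12 B and plasma cell markers 5 (41.7%) were lower members and 0 were called, and normal array 2 was the highest on that list at 7.54, with Ms4a1, a surface protein of B cells, at 9.22 there against 4.96 in normal array 1. Of 16 endothelial markers 2 were higher members, 12.5%, close to the 11.4% of all autosomal genes, and 3 were called higher, Vwf, Emcn and Plvap. Their mean level was 7.46 and 7.45 in situ, above 5.79 and 5.58 in the normal but below 7.57 and 7.79 in the invasive arrays. Vwf, von Willebrand factor of vessel walls, read 4.62 and 4.52 in normal, 8.10 and 7.95 in situ and 6.93 and 6.34 in invasive tissue, a rise of 2.42 ± 0.20 (adjusted p = 0.0119). In captured tissue fewer cells of a type and less RNA per cell cannot be told apart, and RMA gives no zeros, so no marker was at 0. The part of captured stroma in these falls was not tested.

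**Figure D3:**
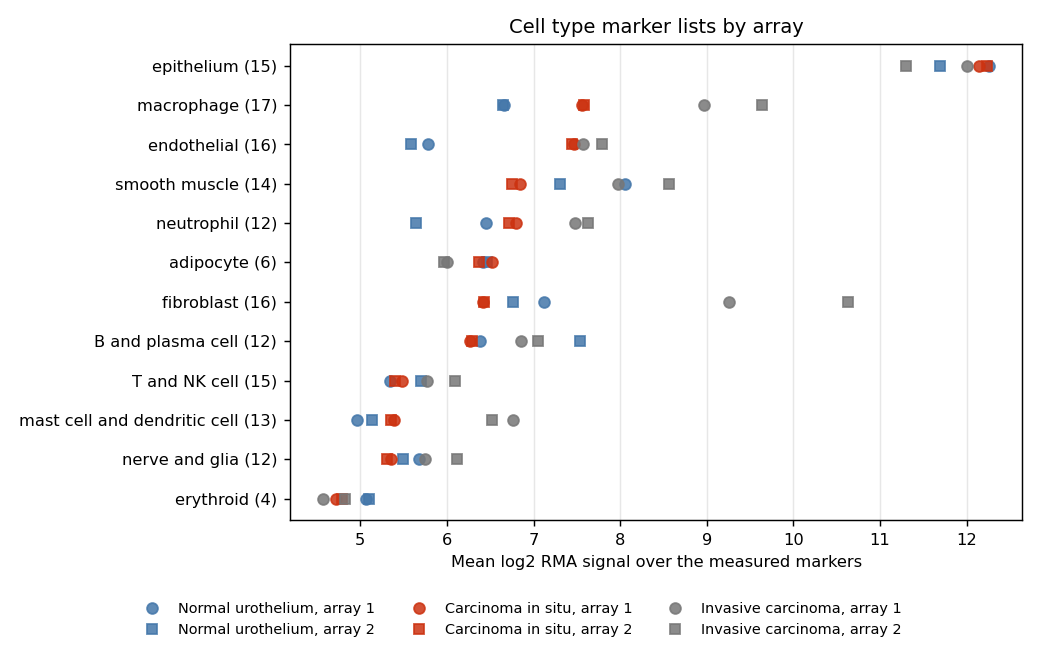
Mean log2 RMA signal over the measured markers of each cell type (rows, number of markers in brackets) on the 6 arrays, coloured by group. The in situ arrays have the lowest fibroblast and smooth muscle means, 6.41 and 6.42 and 6.85 and 6.75, and lie beside the other arrays on the epithelial list, at 12.14 and 12.23.

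Saa3, Cxcl14, Car3 and Gpm6a were among the 12 called lower members furthest from the nearer group. Of the list of 23 innate defence genes 4 were lower members (17.4%, against 7.28%) and 2 were called lower. Saa3, an acute phase serum amyloid, read 10.58 and 12.45 in the normal, 7.30 and 6.53 in the in situ and 10.09 and 11.30 in the invasive arrays and fell by 4.19 ± 0.62 (adjusted p = 0.0371). Cxcl14, a chemokine of resting epithelia, read 9.24 and 9.14, 6.0 and 5.49, and 7.78 and 9.22 and fell by 3.10 ± 0.41 (adjusted p = 0.0287). For both genes the normal and invasive arrays overlapped above the in situ arrays. Car3, a carbonic anhydrase of muscle and fat, read 4.12 and 3.95 in situ against 6.40 to 7.76 in the other arrays and fell by 3.01 ± 0.30 (adjusted p = 0.0151), while its 3 other probe sets gave -0.27 to -0.40. Gpm6a, a neuronal membrane glycoprotein, read 7.71 and 9.12 in normal, 2.66 and 2.87 in situ and 4.99 and 6.08 in invasive tissue, with no overlap between groups. It fell by 4.21 ± 0.48 (adjusted p = 0.0194), though against the invasive arrays alone it was not called (-2.77 ± 0.55, adjusted p = 0.0511).

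Gt(ROSA)26Sor, a noncoding transcript of the Rosa26 locus on chromosome 6 that most tissues express, read 9.27 and 8.21 in the normal arrays, 2.96 and 3.33 in the in situ arrays and 8.79 and 7.78 in the invasive arrays. Near the bottom of the scale were only the in situ arrays, and the other 4 overlapped. It fell by 5.36 ± 0.41 (41.2-fold, adjusted p = 0.00963) and had the largest difference from the nearer group of all named genes, -5.14. The transcript was read by 1 probe set only.

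Genes of sterol and fatty acid synthesis were lower in situ in part. Of 24 measured, 6 were lower members (25.0%, against 7.28%), 1, Fasn, was higher, and 5 were called lower: Scd1, Cyp51, Insig1, Fdft1 and Hsd17b7. The median difference of the list was -0.28. The list mean was 8.94 and 8.99 in situ, 10.16 and 9.62 in normal and 9.15 and 8.92 in invasive tissue. Both lesions were thus below normal tissue on the list mean, and the lowest value was that of an invasive array. Scd1, a desaturase that makes oleate, read 8.49 and 7.78 in normal, 5.41 and 5.81 in situ and 8.88 and 8.85 in invasive tissue and fell by 2.89 ± 0.25 (adjusted p = 0.0119), with -0.61 at its other probe set. Cyp51, the sterol demethylase, read 9.86 and 9.21, 8.05 and 7.91, and 9.73 and 9.50 and fell by 1.59 ± 0.22 (adjusted p = 0.0317). For both enzymes the in situ arrays were alone at the bottom and the other groups were close. Insig1, a sterol-regulated anchor of the ER, read 9.32 and 8.96, 7.11 and 6.95, and 7.96 and 8.12 and fell by 1.56 ± 0.17 (adjusted p = 0.0176), with the invasive arrays in between. Fdft1, squalene synthase (-1.11 ± 0.16, adjusted p = 0.0328), and Hsd17b7 (-1.01 ± 0.14, adjusted p = 0.0317) fell too. The 3 other probe sets of Fdft1 gave -0.66 to 0.55, and at 1 of them, the one at 0.55, the in situ arrays lay above all others. The difference of Hsd17b7 from the invasive mean was -0.25, so most of its fall was against normal tissue. Mvd, an enzyme of the mevalonate branch, was a member that was not called (-0.74 ± 0.32, adjusted p = 0.320).

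Ras and MAPK output genes were higher in situ more often than the background. Of 20 genes 10 were higher members (50%, against 11.4%), 0 were lower, and 3 were called higher. The median difference was 0.77. Etv5, an ETS factor induced by MAPK signalling, read 6.88 and 5.79 in normal, 8.56 and 8.77 in situ and 6.93 and 7.09 in invasive tissue. Only the in situ arrays were high, and the rise was 1.99 ± 0.31 (adjusted p = 0.0426). The difference of Etv5 from the invasive arrays alone was not called (1.65 ± 0.36, adjusted p = 0.0669). Dusp6, a phosphatase that acts on ERK, read 8.15 and 6.84, 11.49 and 11.74, and 11.25 and 10.79. Ccnd1, cyclin D1, read 9.16 and 9.26, 11.87 and 11.95, and 11.75 and 11.83. In these the invasive arrays came close to the in situ arrays, so that the rises of Dusp6 (2.36 ± 0.38, adjusted p = 0.0451) and Ccnd1 (1.41 ± 0.13, adjusted p = 0.0139) came mostly from the normal side. Phlda1 (1.31 ± 0.22, adjusted p = 0.0516), Spred3 (1.29 ± 0.32), Etv4 (1.23 ± 0.28), Spred2 (1.04 ± 0.44), Spry1 (0.68 ± 0.19), Epha2 (0.58 ± 0.21) and Epha4 (0.23 ± 0.14) were members that were not called. Of the EGF receptor family and its ligands, Ereg (1.45 ± 0.75), Hbegf (1.24 ± 0.28) and Nrg2 (0.28 ± 0.15) were higher and Egfr itself lower (-0.58 ± 0.14), with 0 of 15 called.

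Immediate early and cytokine genes were mixed. Jun, a subunit of AP-1, read 6.45 and 6.69 in normal, 11.06 and 11.37 in situ and 10.67 and 10.01 in invasive tissue, and rose by 2.76 ± 0.24 (adjusted p = 0.0119). Both lesions were high, with the in situ arrays at the top. Ier2 rose (1.05 ± 0.14, adjusted p = 0.0287), and Klf2, a factor of quiescent endothelium and T cells, fell (-1.67 ± 0.28, adjusted p = 0.0482). The difference of Ier2 was 1.89 from normal but 0.22 from invasive tissue, and that of Klf2 -0.78 and -2.56. Cxcl15, a mouse chemokine known as lungkine, read 7.59 and 7.81 in normal, 9.42 and 9.62 in situ and 4.54 and 5.50 in invasive tissue. It went up from normal to in situ and was lowest in the invasive arrays, with a rise of 3.16 ± 0.29 (adjusted p = 0.0128). Il18 rose (1.06 ± 0.18, adjusted p = 0.0493), by 1.70 against normal and 0.43 against invasive tissue. Il11 (-0.95 ± 0.20) and Csf3 (-0.57 ± 0.14) were lower members that were not called. Of 31 chemokine and cytokine genes 3 were higher and 3 lower members, 9.68% each, which is near the background. Of 23 interferon response genes 2 were higher members (8.7%, against 11.4% of autosomal genes), and the median difference was -0.251. Their mean level was 7.585 and 7.597 in situ, between 6.46 and 6.797 in the normal and 8.873 and 9.004 in the invasive arrays. Mx1, an antiviral GTPase, was the 1 gene called higher, with a rise of 1.64 ± 0.25 (adjusted p = 0.0408). Ifit3 was the 1 gene called lower (-1.17 ± 0.15, adjusted p = 0.0244), and was no member.

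**Figure D4:**
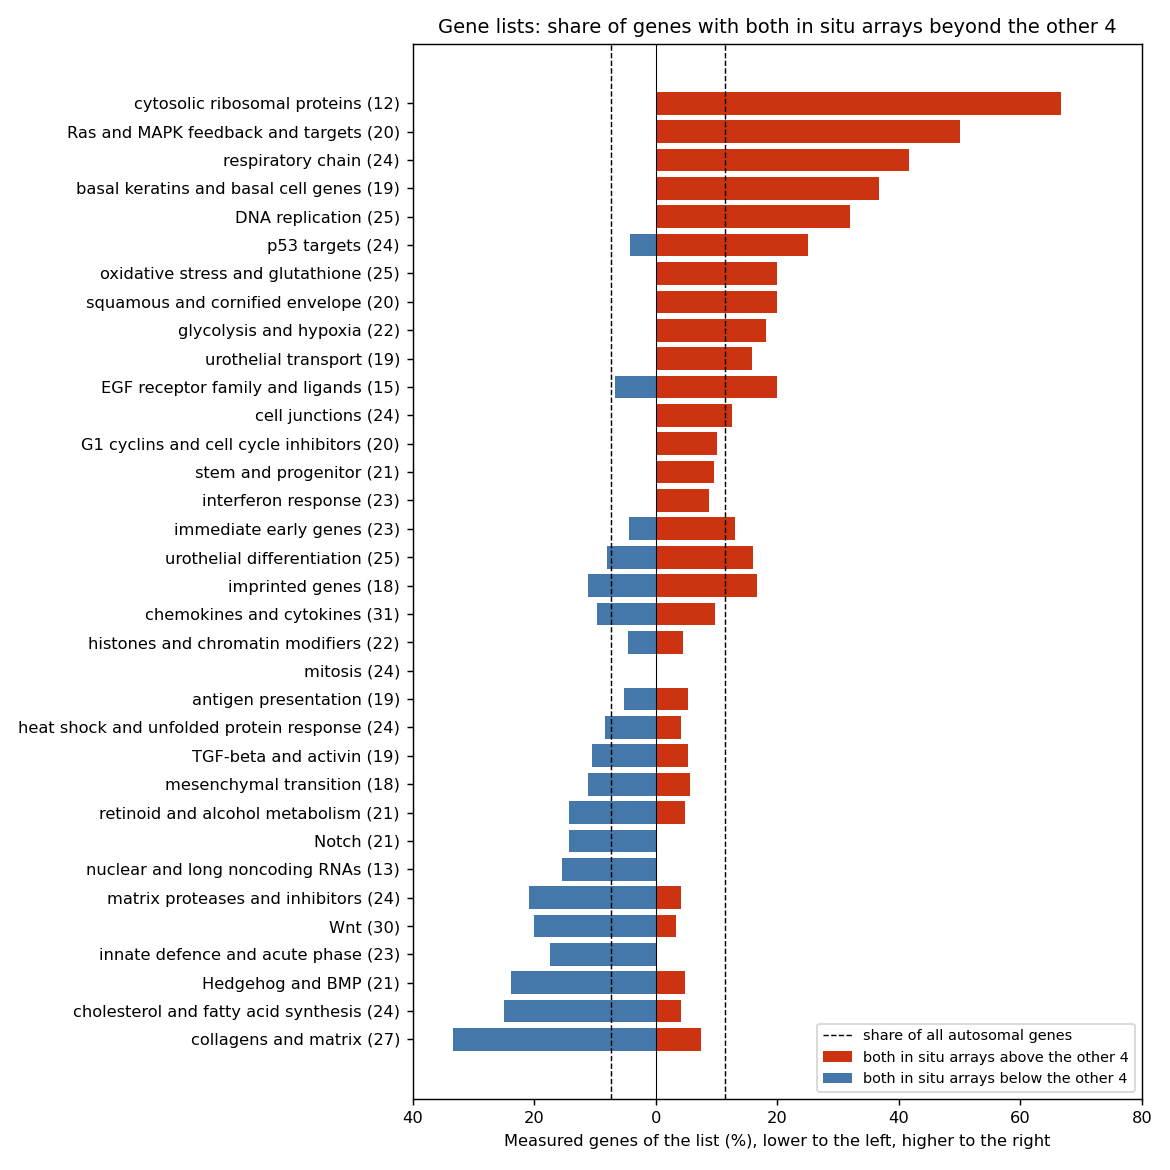
Share of the measured genes of each list (rows, number of genes in brackets) with both in situ arrays beyond the other 4 arrays, in percent. Bars to the right (red) count genes above and bars to the left (blue) genes below the other arrays. The cell type marker lists and the sex-linked list are left out. Dashed lines mark the share of all autosomal genes, 11.4% and 7.28%. Ribosomal protein, Ras and MAPK, respiratory chain, basal cell and DNA replication genes reach furthest right, at 66.7%, 50%, 41.7%, 36.8% and 32.0%, and of these lists collagen and matrix genes reach furthest left, at 33.3%.

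Basal cell genes were higher in situ in 7 of 19 cases (36.8%, against 11.4%) and lower in 0, with a median of 0.75, but none of the 7 was called. Trp63, the p63 gene, read 10.30 and 10.51 in normal, 12.11 and 12.21 in situ and 11.10 and 10.11 in invasive tissue (1.66 ± 0.29, adjusted p = 0.0547). Col17a1, a hemidesmosome collagen, read 9.57 and 8.73, 11.63 and 11.91, and 10.80 and 9.47 (2.13 ± 0.43, adjusted p = 0.0725). In both the in situ arrays were the highest and the other groups overlapped. Krt15 (1.85 ± 0.78), Krt5 (1.17 ± 0.33), Itgb4 (0.98 ± 0.32), Ngfr (0.60 ± 0.14) and Itga3 (0.38 ± 0.16) made up the rest. The list mean was 9.72 and 9.685 in situ, 8.59 and 7.98 in normal and 10.16 and 9.50 in invasive tissue. Other basal keratins were no members and were highest in invasive tissue. Krt14 read 12.61 and 12.60 in situ against 13.435 and 13.355 in the invasive arrays. Krt6a read 10.16 and 10.24 in situ against 12.74 and 11.60 in the invasive arrays. Krt17, a keratin of wounded epithelium, was called lower (-2.07 ± 0.22, adjusted p = 0.0176) though no member: it read 3.91 and 3.61 in situ, just above the normal arrays at 3.03 and 2.98 and far below the invasive arrays at 8.97 and 8.32. Of 25 urothelial differentiation genes 4 were higher (16.0%) and 2 lower members (8.00%), close to the background. Klf5 (1.36 ± 0.26, adjusted p = 0.0647) and Ovol1 (1.38 ± 0.29, adjusted p = 0.0810), epithelial transcription factors, were among the higher, and were not called.

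In the squamous list 4 of 20 genes were higher members (20%, against 11.4% of autosomal genes) and 0 lower. Rptn, repetin of the cornified envelope, read 5.84 and 4.61 in normal, 6.65 and 6.75 in situ and 3.67 and 3.31 in invasive tissue, and rose by 2.34 ± 0.35 (adjusted p = 0.0393). Against the normal arrays alone it was not called (1.47 ± 0.41, adjusted p = 0.0907). Its other probe sets gave 0.18 and -0.16, the last with both in situ arrays below all others. Tgm1, the envelope's transglutaminase, read 5.95 and 5.65, 8.21 and 8.23, and 7.96 and 7.39, and rose by 1.48 ± 0.21 (adjusted p = 0.0324). The invasive arrays were lowest for Rptn but close to the in situ arrays for Tgm1. Cnfn (0.48 ± 0.14) and Sprr3 (0.34 ± 0.19) were higher members that were not called. Of 24 junction genes 3, Pkp3, Cldn7 and Jup, were higher members (12.5%, near the 11.4% of autosomal genes), and 0 were called.

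Of 25 DNA replication genes 8 were higher members (32.0%, against 11.4%) and 2 were called higher, with a median of 0.54. The list mean was 8.65 and 8.64 in situ, 7.62 and 7.185 in normal and 8.55 and 8.56 in invasive tissue. The invasive arrays thus lay close to the in situ arrays, and 0 genes were called higher against both groups. Uhrf1, which brings the maintenance methylase to new DNA, read 6.60 and 6.39 in normal, 9.36 and 9.08 in situ and 8.98 and 8.85 in invasive tissue, and rose by 1.52 ± 0.16 (adjusted p = 0.0172). Its invasive values lay just below the in situ values. The helicase subunit genes Mcm6 (1.96 ± 0.72) and Mcm3 (1.14 ± 0.26), the thymidine kinase gene Tk1 (1.30 ± 0.30) and Pcna, the sliding clamp (1.12 ± 0.77), were members that were not called. Of 24 mitosis genes 0 were members, yet 7 were called higher, with a median of 0.93. Mki67, a marker of dividing cells, read 5.74 and 6.1 in normal, 9.43 and 9.44 in situ and 10.12 and 10.02 in invasive tissue. Invasive arrays exceeded the in situ arrays, so the call (1.44 ± 0.16, adjusted p = 0.0186) came from the low normal values alone.

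Of 24 p53 target genes 6 were higher members (25.0%, against 11.4% of autosomal genes) and 1 lower (4.17%, against 7.28%), with a median of 0.21. Both lesions came from mice labelled p53-/-, and the normal arrays from wild-type mice. Ccng1, cyclin G1, read 10.61 and 11.07 in normal, 12.16 and 11.96 in situ and 10.78 and 10.82 in invasive tissue, a rise of 1.24 ± 0.18 (adjusted p = 0.0359) that was called against each group. Cdkn1a, the inhibitor p21, read 9.64 and 9.56, 11.17 and 11.09, and 10.66 and 10.29, a rise of 1.09 ± 0.16 (adjusted p = 0.0371). For Ccng1 the normal and invasive arrays were at 1 level, while for Cdkn1a the invasive arrays lay between. Gadd45a (1.25 ± 0.27), Phlda3 (1.18 ± 0.22), Zmat3 (0.73 ± 0.19) and Tnfrsf10b (0.16 ± 0.14) were higher and Trp53inp1 (-0.38 ± 0.22) lower, and none of these was called. In the stem and progenitor list, Sox2, a pluripotency factor, was a higher member that was called (1.83 ± 0.23, adjusted p = 0.0224), at 8.76 and 8.20 in situ, 8.17 and 7.77 in invasive and 5.22 and 5.45 in normal tissue.

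Highly expressed housekeeping genes were often members with small differences and no call. Of 12 ribosomal protein genes 8 were higher members (66.7%, against 11.4% of autosomal genes) with a list median of 0.35. The largest, Rpl7, was 0.65 ± 0.21. Of 24 respiratory chain genes 10 were higher members (41.7%), with a median of 0.36. They included Atp5o (1.22 ± 0.43) and Atp5b (1.02 ± 0.54) of the ATP synthase, Uqcrc1 (1.03 ± 0.23) of complex III and Sdhc (0.74 ± 0.14) of complex II. None of the genes of either list was called. The mean level of the respiratory list was 11.81 and 11.87 in situ, 11.69 and 11.03 in normal and 11.49 and 11.31 in invasive tissue, with normal array 2 the lowest. Of 25 oxidative stress genes 5 were higher members (20%). Gpx2, an epithelial glutathione peroxidase, read 6.41 and 6.99, 10.92 and 10.75, and 10.71 and 9.60, and rose by 2.41 ± 0.35 (adjusted p = 0.0351) with both lesions high. Of 22 glycolysis and hypoxia genes 4 (18.2%), Adm, Hk1, Aldoa and Pkm, were higher members, and 0 were called. Clic6, a chloride channel protein of the transport list, rose by 3.38 ± 0.41 (adjusted p = 0.0224), from 4.70 and 4.46 in normal to 10.11 and 10.47 in situ, beside 9.96 and 8.52 in invasive tissue.

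Several matrix genes that were high in invasive tissue were among the lower members. Of 27 collagen and matrix genes 9 were lower members (33.3%, against 7.28%), 2 were higher and 9 were called lower, with a median of -1.34. Col3a1, a fibrillar collagen, read 9.89 and 10.01 in normal, 8.91 and 8.82 in situ and 13.00 and 13.83 in invasive tissue and fell by 2.82 ± 0.25 (adjusted p = 0.0128). Most of that difference was against the invasive arrays. The same shape held for the protease list, in which 5 of 24 were lower members (20.8%) and 8 were called lower. Mmp3, stromelysin, read 4.99 and 4.91 in normal, 4.55 and 4.68 in situ and 13.30 and 13.41 in invasive tissue and fell by 4.53 ± 0.14 (adjusted p = 0.00178), with a difference of only -0.33 from normal. Timp2, an inhibitor of metalloproteinases, read 10.59 and 10.51, 9.22 and 9.46, and 12.39 and 12.35, and was called lower against each group (-2.12 ± 0.14, adjusted p = 0.00836). The basement membrane collagens Col4a6 (1.34 ± 0.37) and Col18a1 (0.70 ± 0.13) were the higher members, and were not called.

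Of 30 Wnt pathway genes 6 were lower members (20%, against 7.28% of autosomal genes) and 1, Dkk3, was higher (3.33%, against 11.4%). Sfrp2, a secreted Wnt inhibitor, fell by 3.20 ± 0.24 (adjusted p = 0.00963), at 5.07 and 4.66 in situ, 5.63 and 5.37 in normal and 10.30 and 10.95 in invasive tissue. Dkk3 rose by 1.64 ± 0.20 (adjusted p = 0.0224), at 9.88 and 9.997 in situ, 9.35 and 9.24 in invasive and 7.61 and 7.02 in normal tissue. Axin2, a feedback target of Wnt signalling, was a lower member that was not called (-0.90 ± 0.18, adjusted p = 0.0749). Of 21 Hedgehog and BMP genes 5 (23.8%) were lower members. Grem1, a BMP antagonist, read 4.72 and 4.73 in situ, 4.82 and 4.86 in normal and 9.54 and 9.52 in invasive tissue and fell by 2.46 ± 0.13 (adjusted p = 0.00781), almost wholly against the invasive arrays. Bmp4 fell by 1.48 ± 0.22 (adjusted p = 0.0376), mostly against the invasive arrays, with -0.66 from normal and -2.30 from invasive tissue. Bmp2 was lower without a call (-1.98 ± 0.40, adjusted p = 0.0747). Id1, a target of BMP signals, was higher without a call (2.08 ± 0.41, adjusted p = 0.0709). Tgfb2 fell by 2.08 ± 0.29 (adjusted p = 0.0328), with a difference of -1.08 from normal and -3.08 from invasive tissue. Of 21 Notch genes 3, Notch2, Notch3 and Maml1, were lower members (14.3%), and 0 were called.

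Among imprinted genes, Meg3, a noncoding RNA, read 12.45 and 13.55 in normal, 7.31 and 7.58 in situ and 7.67 and 9.91 in invasive tissue (-3.45 ± 0.66, adjusted p = 0.0653), a lower member without a call in which both lesions were low. Peg3 rose by 1.30 ± 0.20 (adjusted p = 0.0411), at 12.38 and 12.63 in situ, 11.81 and 11.73 in normal and 10.93 and 10.38 in invasive tissue. Rbp4, a retinol carrier, was lower without a call (-2.85 ± 0.53, adjusted p = 0.0615). Herpud1, a gene of the unfolded protein response, fell by 1.40 ± 0.16 (adjusted p = 0.0209), at 9.06 and 9.16 in situ, 10.26 and 10.04 in normal and 11.02 and 10.70 in invasive tissue, and was called lower against each group. The only other member on that list to be lower was Dnajb9 (-0.78 ± 0.30, adjusted p = 0.264).

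Further members called against each group are given here as examples chosen after their values were seen. Among the higher were 2 genes of small-molecule handling. Slc16a9, a monocarboxylate transporter family member, read 9.01 and 9.38 in normal, 11.50 and 11.12 in situ and 8.98 and 9.19 in invasive tissue (2.17 ± 0.20, adjusted p = 0.0128). Dpyd, which starts the breakdown of uracil and thymine, read 6.18 and 5.50, 7.63 and 7.96, and 4.85 and 4.68 (2.49 ± 0.24, adjusted p = 0.0139). Normal and invasive tissue were at 1 level for Slc16a9, while for Dpyd the invasive arrays were the lowest. Dhh, a hedgehog ligand, rose by 1.91 ± 0.14 (adjusted p = 0.00963), at 7.97 and 7.80 in situ against 5.6 to 6.37 in the others, and Tns4, a tensin of epithelial cells, by 1.83 ± 0.22 (adjusted p = 0.0224). Among the lower were genes of caveolae, the small pits of the plasma membrane. Cav1, their main coat protein, read 9.43 and 8.70 in normal, 7.75 and 7.69 in situ and 11.61 and 11.68 in invasive tissue and fell by 2.63 ± 0.23 (adjusted p = 0.0120). Cavin2, a coat adaptor, read 7.64 and 7.64, 5.64 and 5.28, and 9.97 and 10.62 and fell by 3.51 ± 0.23 (adjusted p = 0.00836). Fgfr1, a receptor for fibroblast growth factors, was at 5.89 and 5.82 in situ against 7.48 to 10.11 in the others and fell by 3.02 ± 0.37 (adjusted p = 0.0224). These 3 genes formed 3 levels, lowest in situ and highest in invasive tissue. Kcnj15, a potassium channel, fell by 2.12 ± 0.13 (adjusted p = 0.00836), at 7.04 and 7.07 in situ, 9.89 and 9.74 in normal and 8.49 and 8.56 in invasive tissue.

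A readout that the rule did not use came from the other probe sets of the same genes, which share the RNA and the arrays. Of 1977 higher members 1009 had other probe sets, and in 434 of these (43.0%) another probe set also had both in situ arrays above the other 4. Over all 8675 autosomal genes with several probe sets, 17.6% had another probe set of that kind. For the lower members the figures were 228 of 650 (35.1%) and 10.9%. All other probe sets had the sign of the member in 625 of the 1009 higher (61.9%) and 404 of the 650 lower members (62.2%). Another probe set lay beyond the other arrays on the opposite side in 41 higher and 30 lower members. These are descriptions, since probe sets of a gene share their transcripts.

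Position was not used by the rule either. Members that are direct neighbours among the protein-coding genes of RefSeq and share a direction were looked up. There were 278 such pairs of higher and 94 of lower members. How many pairs the shares of members alone would give was not worked out. In 5 pairs both genes differed from the nearer group by over 1: Padi3 and Padi1, Fbp2 and Fbp1, H60c and Ppp1r14c on chromosome 10, the pair of Tango6 and Has3 on chromosome 8, and the complement protease genes C1ra and C1s1 on chromosome 6, of which the last pair was lower and the others higher. Has3, a hyaluronan synthase, read 9.76 and 10.07 in situ against 7.26 to 8.89 in the other arrays, and C1s1 read 5.36 and 5.51 in situ against 6.77 to 9.42.

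Chromosomes differed in the share of members, a look that was chosen after values had been seen. Chromosome 17 had the largest share of higher members, 17.4% of 834 genes, with 4.68% lower, and chromosome 12 the smallest, 3.22% of 622 genes, with 10.6% lower. Over 11057 autosomal genes with a mean above the table's median of 6.09, the median difference of the in situ arrays from normal was 0.12, and it was -0.25 on chromosome 12 (398 genes) and 0.28 on chromosome 17 (568 genes). The low level of chromosome 12 was common to both lesions: in situ arrays 1 and 2 lay at -0.28 and -0.23 against the normal mean, and the invasive arrays at -0.29 and -0.29, so that the in situ and invasive stages differed there by 0.0057. In each of 5 consecutive stretches of chromosome 12, in gene order, the median against normal was below 0, from -0.46 to -0.11. On chromosome 17 the in situ arrays were the higher against both groups, by 0.28 and 0.16. Chromosome 1 had medians of 0.17 against normal and 0.24 against invasive tissue. Genes of a chromosome are not independent, and no test was made.

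**Figure D5:**
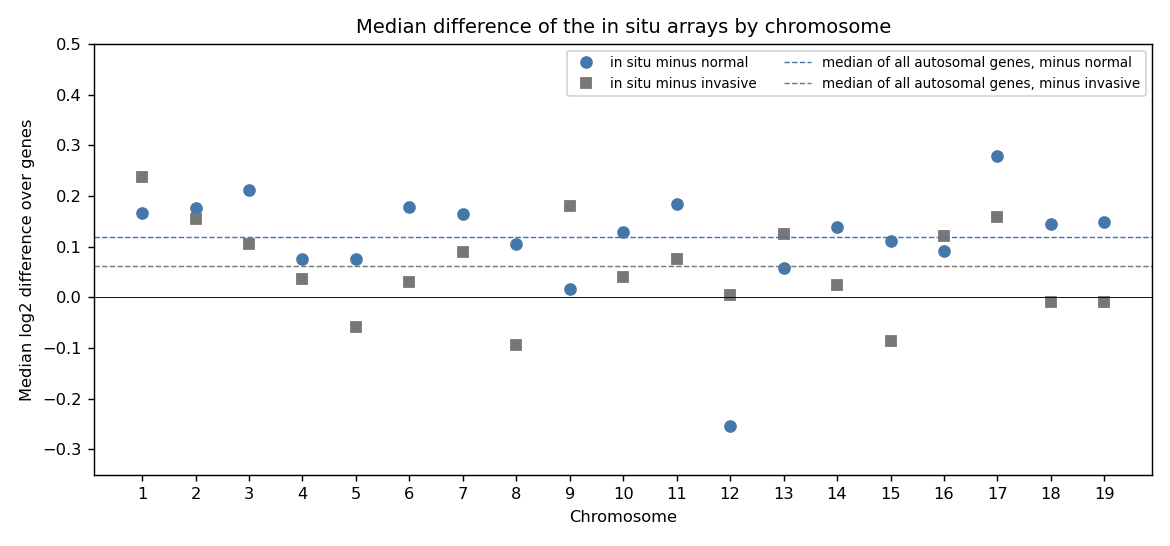
Median log2 difference of the in situ mean from the normal mean (circles) and from the invasive mean (squares) over the genes of each autosome with a mean above the table's median, with dashed lines at the median of all autosomal genes. Chromosome 12 lies lowest against normal, at -0.25, and chromosome 17 highest, at 0.28.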

How the data were processed

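Laser-captured bladder tissue was profiled on Affymetrix 3' arrays. Per the submitters' processing notes, the authors used Partek and RMA, and the deposited table holds log2 signals of 45101 probe sets on 6 arrays. RMA brings all arrays to a common distribution, so a difference in total RNA is not seen, and it compresses small signals. Probe sets were named through the array's annotation: 34958 had 1 symbol, 932 several and 9211 none. Of 34945 that were named and no controls, 34741 were found in a RefSeq gene table (GRCm38.p6) used for symbols, chromosomes and gene order. The probe set with the highest mean stood for a gene, giving 18193 genes. The array design's genome build is not given in the sources used here.

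All 6 arrays entered a limma 3.58.1 model (R 4.3.3) with 3 group means and eBayes (3 residual and 2.69 prior degrees of freedom), with no filter on dim probe sets. P-values were two-sided, adjusted by Benjamini-Hochberg over all 18193 genes. The fit was tested on simulated data. Members and the 47 gene lists (898 measured memberships of 969) were chosen with earlier results of these data known. Named were the 12 higher and 12 lower called members furthest from the nearer group, leaving out provisional symbols and antigen receptor segments, and per list up to 4 members with the largest difference, or 2 genes where there was none. Further members were named after their values had been seen. Alternatives changed the scaling, the probe set per gene, the filter, the variance model, the block and the arrays included.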

Additional observations from a re-analysis of the deposited data

How the results depend on the processing

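Counts of calls depended on the arrays that set the spread. With in situ against the 4 other arrays as 1 group limma called 0 genes (1067 at an unadjusted p under 0.05), and with both in situ arrays averaged to 1 sample it called 0 genes (1312 unadjusted) and 0 against both groups, since the other groups then supply all of the spread. Leaving out 1 array at a time gave 0 to 2968 calls (main 456), 0 to 520 genes called against both groups (main 101) and 4089 to 5532 members (main 3243), the last a gain by construction, as fewer arrays have to be passed. The counts against both groups were 0 without either in situ array, 520 without normal array 1, 320 without normal array 2 and 35 without invasive array 2. Without normal array 2 and invasive array 1 together, 4953 genes were called (1185 against both groups, 6160 members), a fit whose 1 residual degree of freedom is the close in situ pair.

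Deviations of same-numbered arrays correlated at -0.39 (normal and in situ), 0.37 (normal and invasive) and -0.34 (in situ and invasive). Each group's deviation is only the difference between its own arrays. These correlations therefore cannot show whether replicate numbers pair the arrays. With the replicate block 265 genes were called, 90 higher and 175 lower, and 72 against both groups.

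Median centring, quantile normalization, a filter on dim genes, the most variable probe set, the mean of probe sets and a trended robust variance gave 388 to 649 calls. Of 3243 members 3099 remained after median centring, 2798 after quantile normalization and 2583 with the mean of probe sets. The 24 genes furthest from the nearer group kept their direction under these scalings and probe set choices, while with arrays left out, averaged or grouped the membership rule itself fixes the direction. Past the threshold were 0 of 24 without either in situ array, 13 without invasive array 2 and at least 22 under the scalings and probe set choices. Snhg1 (main -1.003) turned to 0.075 with the most variable probe set, and Slc4a1 (main -0.19) to 0.10 with it and to 0.011 with the mean of probe sets. The cause was not tested.

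With 2 arrays per group, differences under 2-fold were seldom called, and a gene near the bottom of the scale has an understated fold.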
